A study of Homo sapiens with 4 samples.

Results

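A set of 10 feedback genes of the RAS-ERK pathway were examined in STAU1 knockdown cells: the MAP kinase phosphatases DUSP1, DUSP4, DUSP5, DUSP6, DUSP7, DUSP9 and DUSP10, the Sprouty genes SPRY2 and SPRY4, and the Sprouty-related gene SPRED1. These 10 genes, of the 67008 listed in the count table, were matched by symbol to their Ensembl identifiers. They were chosen by their values in the same comparison of shSTAU1 with control cells that is described here, so their differences between the groups are given as a description, without a test.

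The transcriptome was measured by RNA sequencing of exome-captured libraries (TruSeq RNA Exome) made from total RNA. Both groups were infected with a virus carrying a short hairpin RNA: the hairpin of the control group (Ctrl) targets luciferase, which human cells lack, and that of the knockdown group (shSTAU1) targets STAU1, a protein that binds double-stranded RNA. Each group holds 2 libraries, and the genotype is given as WT in all 4. The labels call the cells an oral cancer line of human origin and the growth protocol names SAS, a human tongue squamous carcinoma line, whereas the cell line field names C3H 10T1/2, a mouse fibroblast line. Only 1 hairpin is named for each group, so an effect of this hairpin on other transcripts cannot be told apart from the loss of STAU1. No label says that the replicates were separate cultures, so p-values measure the spread between these libraries, which may be technical.

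MAP kinase phosphatases remove phosphate from the threonine and tyrosine of the activation loop of ERK, JNK and p38 kinases and thereby switch them off. Many of their genes are transcribed in response to the kinases they inactivate, which closes a negative feedback loop. Sprouty and SPRED proteins act further upstream, between growth factor receptors and RAF, and SPRY2, SPRY4, DUSP4, DUSP5 and DUSP6 are commonly read as transcripts that follow ERK activity in epithelial and cancer cells.

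The libraries held 32206655 to 36301574 counts. STAU1 itself was at 249 and 251 CPM (counts scaled to the library size) in the Ctrl libraries and at 41.6 and 41.5 CPM in the shSTAU1 libraries, and it fell by 2.59 on the log2 scale (SE 0.13, edgeR quasi-likelihood test, adjusted p = 0.00103). Without Ctrl replicate 1 the log2 fold change of STAU1 was -2.60 with an adjusted p of 0.49. Of the 14303 genes that passed the filter on low counts, 372 passed an adjusted p of 0.05, with 161 higher and 211 lower in shSTAU1. The split was 132 higher and 272 lower with the plain library size, 773 and 676 by DESeq2, and 286 and 230 when each library was corrected for its trend with length and GC content. The number called was 0 without Ctrl replicate 1, 64 without Ctrl replicate 2, 2780 without shSTAU1 replicate 1 and 2203 without shSTAU1 replicate 2. The labelled cell type was read from 7 squamous epithelial markers (KRT5, KRT14, KRT6A, KRT17, TP63, CDH1 and EPCAM), which all passed the filter and summed to 7040 and 7440 CPM in Ctrl and to 8590 and 11200 CPM in shSTAU1. Among 6 fibroblast markers, COL3A1, DCN and LUM had at most 1 count in any library and the sum was 9.99 to 22.1 CPM. Leukocyte markers summed to at most 0.283 CPM and endothelial markers to 7.44 to 18 CPM. Within these lists KRT5 rose (log2 fold change 0.65, SE 0.12, adjusted p = 0.0408) and COL1A1 fell (log2 fold change -1.35, SE 0.23, adjusted p = 0.036), while COL1A2 was higher in both shSTAU1 libraries without passing (log2 fold change 1.01, SE 0.41, adjusted p = 0.185). The part of these markers in the values below was not tested.

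All 10 genes passed the filter, and none had fewer than 41 counts in any library. The highest difference was that of DUSP9, which had the lowest CPM of the 10 genes in Ctrl cells and was 7.83 times higher in shSTAU1 cells. Of the transcripts commonly read as following ERK activity, DUSP6, SPRY2 and SPRY4 were at 39.1% to 49.9% of their Ctrl level. Of the same transcripts, DUSP4 was at 64.8% and DUSP5 at 103%. DUSP7 was modestly higher, while DUSP1, DUSP10 and SPRED1, like DUSP5, differed little in their means. The shSTAU1 libraries lay on 1 side of both Ctrl libraries for 7 of the 10 genes, with 2 higher and 5 lower. This held for 56.6% of all genes tested. An adjusted p under 0.05 in the edgeR fit was reached by 2 of the 10 (DUSP9 higher, DUSP6 lower) and by 2.60% of all genes tested. Because the genes were selected on this contrast, nothing is read from either count. In RNA from a whole culture, fewer cells that express a gene and less RNA of it in each cell cannot be told apart.

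**Figure D1:**
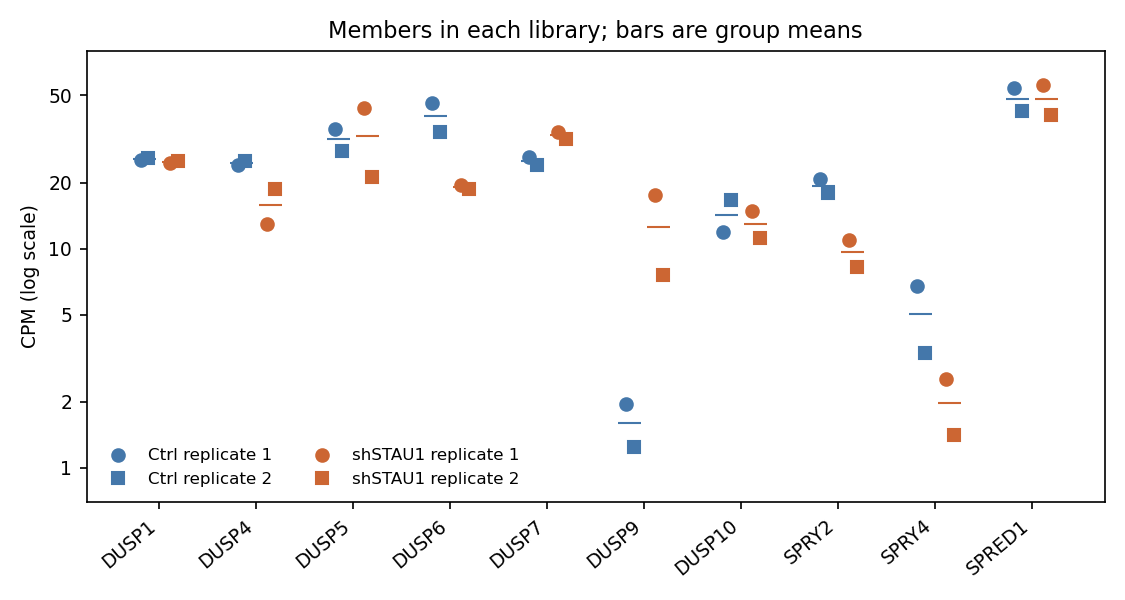
CPM (log axis) of the 10 genes in each of the 4 libraries, with circles for replicate 1, squares for replicate 2 and a bar at the mean of each group. DUSP9 lies at 1.25 and 1.96 CPM in Ctrl and at 7.56 and 17.6 CPM in shSTAU1, and the groups overlap for DUSP5, DUSP10 and SPRED1.

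DUSP6, DUSP7 and DUSP9 form the cytoplasmic subgroup of MAP kinase phosphatases, whose preferred substrate is ERK. DUSP9 (MKP-4, ENSG00000130829, chrX:153642492-153651326 on the plus strand of GRCh38) had 66 and 41 counts in Ctrl replicates 1 and 2, and 613 and 267 counts in shSTAU1 replicates 1 and 2. Scaled to library size, the Ctrl mean was 1.61 ± 0.502 CPM and the shSTAU1 mean was 12.6 ± 7.11 CPM (SD, n = 2). Both shSTAU1 libraries were above both Ctrl libraries, and the shSTAU1 libraries themselves were far apart. The log2 fold change was 2.96 (SE 0.45), and 21 of the 14303 genes tested (0.147%), DUSP9 included, had a value at least as high. It was 8.97 times higher in the libraries numbered 1 and 6.03 times higher in those numbered 2. The log2 fold change was 2.24 without shSTAU1 replicate 1 and 3.44 without shSTAU1 replicate 2, the lowest and highest values with 1 library left out.

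DUSP6 (MKP-3, ENSG00000139318, chr12:89347232-89353271 on the minus strand), a phosphatase selective for ERK and itself a transcript induced by ERK, had 1555 and 1117 counts in Ctrl and 681 and 666 counts in shSTAU1. In CPM it was at 40.2 ± 8.57 in Ctrl and at 19.2 ± 0.506 in shSTAU1 (SD, n = 2). The groups did not overlap, and the spread lay mostly between the Ctrl libraries. Its log2 fold change was -1.07 (SE 0.19) and ran from -1.26 to -0.83 with 1 library left out. DUSP7 (PYST2, ENSG00000164086, chr3:52048919-52056550 on the minus strand), the third cytoplasmic ERK phosphatase, had 881 and 789 counts in Ctrl and 1190 and 1124 counts in shSTAU1. Its groups did not overlap either, at 25.1 ± 1.49 and 33.0 ± 1.68 CPM (SD, n = 2), and the log2 fold change was 0.39 (SE 0.15). Every setting with 1 library left out gave DUSP7 a value between 0.34 and 0.45.

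Levels of different genes were compared as RPKM, the CPM per kilobase of length. The coding length was used first, because the probes of such a capture kit lie largely in coding exons, and this scale was added after seeing the data. On it DUSP6, DUSP7 and DUSP9 together were at 62.8 and 50 RPKM in Ctrl and at 59.4 and 48.2 RPKM in shSTAU1. The sums of the groups overlapped, and in each group replicate 2 was the lower one. DUSP6 made up 64.2% and 59.6% of the sum in Ctrl and 28.7% and 34.1% in shSTAU1. DUSP9 made up 2.70% and 2.17% in Ctrl and 25.6% and 13.6% in shSTAU1. DUSP6 was the most abundant of these transcripts in both Ctrl libraries, and DUSP7 in both shSTAU1 libraries. The sum depended on the length: over the median transcript length it was 52.1 and 39.8 RPKM in Ctrl and 36.6 and 30.8 RPKM in shSTAU1, without overlap, and DUSP6 stayed the most abundant in every library. Over the longest transcript it was 19.2 and 15.5 RPKM in Ctrl and 21.9 and 16.9 RPKM in shSTAU1, with overlap. The share of DUSP9 was higher in both shSTAU1 libraries on each of these scales, at 1.37% to 4.21% in Ctrl and 10.7% to 33.0% in shSTAU1.

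**Figure D2:**
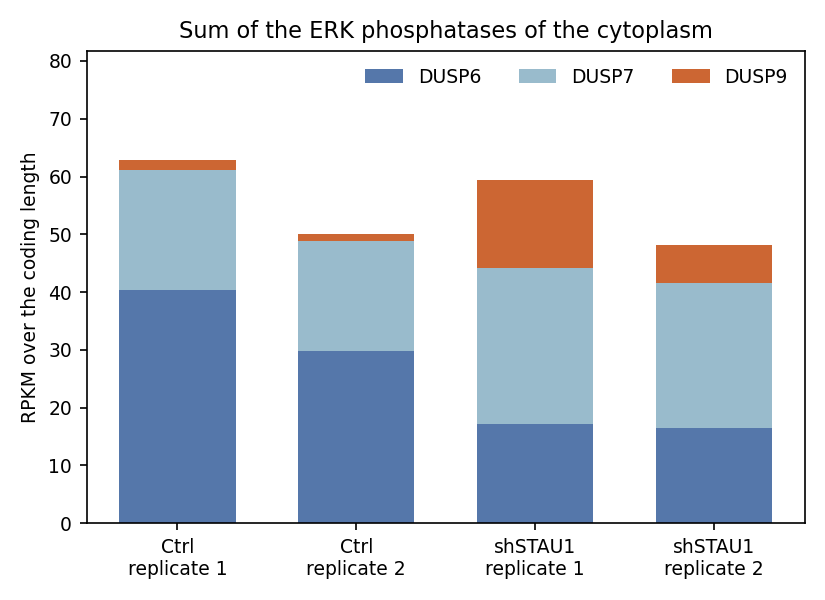
Stacked RPKM over the coding length of DUSP6, DUSP7 and DUSP9 in each library, 1 bar a library. DUSP9 makes up 2.17% to 2.70% of the bar in Ctrl and 13.6% to 25.6% in shSTAU1, while the bar heights of the groups overlap.

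The nuclear, inducible phosphatases were DUSP1, DUSP4 and DUSP5. DUSP4 (MKP-2, ENSG00000120875, chr8:29333064-29350668 on the minus strand), which acts on ERK and JNK, had 811 and 819 counts in Ctrl and 454 and 664 counts in shSTAU1. The groups did not overlap, and the level of 24.6 ± 0.634 CPM in Ctrl compared with 15.9 ± 4.06 CPM after knockdown (SD, n = 2). The log2 fold change was -0.63 (SE 0.21), with -0.92 without shSTAU1 replicate 2 and -0.38 without shSTAU1 replicate 1. DUSP5 (ENSG00000138166, chr10:110497838-110511544 on the plus strand), which is selective for ERK, had 1182 and 916 counts in Ctrl and 1533 and 749 counts in shSTAU1. The shSTAU1 libraries lay above and below both Ctrl libraries, with replicate 2 at 0.481 times the CPM of replicate 1. Its direction was not settled, at a log2 fold change of 0.05 (SE 0.32) that was -0.56 without shSTAU1 replicate 1 and 0.47 without shSTAU1 replicate 2.

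DUSP1 (MKP-1, ENSG00000120129, chr5:172768090-172771195 on the minus strand), an immediate early gene whose product acts on p38, JNK and ERK, varied least over the 4 libraries among the 10 genes. It had 854 and 850 counts in Ctrl and 858 and 890 counts in shSTAU1, or 25.7 ± 0.4 and 24.9 ± 0.381 CPM (SD, n = 2). Both shSTAU1 libraries were below both Ctrl libraries, but by a log2 fold change of -0.04 (SE 0.15), which was 0.02 after the length and GC correction. DUSP10 (MKP-5, ENSG00000143507, chr1:221701424-221742176 on the minus strand), which prefers JNK and p38, had 399 and 544 counts in Ctrl and 515 and 397 counts in shSTAU1. Its groups overlapped, and its log2 fold change of -0.13 (SE 0.24) was 0.14 without Ctrl replicate 2. Together DUSP1, DUSP4 and DUSP5 were at 73.8 and 68.8 RPKM over the coding length in Ctrl and at 71.5 and 57.0 RPKM in shSTAU1, again overlapping.

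SPRY2 (ENSG00000136158, chr13:80335976-80340951 on the minus strand), which restrains RAS activation below receptor tyrosine kinases, had 695 and 587 counts in Ctrl and 384 and 291 counts in shSTAU1. The Ctrl mean was 19.3 ± 1.94 CPM and the shSTAU1 mean 9.63 ± 1.98 CPM (SD, n = 2), so both shSTAU1 libraries were well below both Ctrl libraries. The log2 fold change of SPRY2 was -1.0 (SE 0.22), between -1.22 and -0.82 with 1 library left out. SPRY4 (ENSG00000187678, chr5:142310427-142326455 on the minus strand), a Sprouty that blocks RAF activation, had 227 and 109 counts in Ctrl and 88 and 50 counts in shSTAU1. At 5.04 ± 2.42 and 1.97 ± 0.787 CPM (SD, n = 2) its groups did not overlap, although Ctrl replicate 2 lay close to shSTAU1 replicate 1. Its log2 fold change was -1.35 (SE 0.44), -0.76 without Ctrl replicate 1 and -1.82 without shSTAU1 replicate 1.

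SPRED1 (ENSG00000166068, chr15:38252326-38357249 on the plus strand), which brings the RAS GTPase-activating protein neurofibromin to the membrane, had 1812 and 1398 counts in Ctrl and 1946 and 1434 counts in shSTAU1. The libraries numbered 1 were the higher ones in each group, and the groups overlapped. At 48.3 ± 7.91 and 48.2 ± 10.8 CPM (SD, n = 2) its log2 fold change was 0.00 with an SE of 0.20, and the sign of this value turned with the setting.

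**Figure D3:**
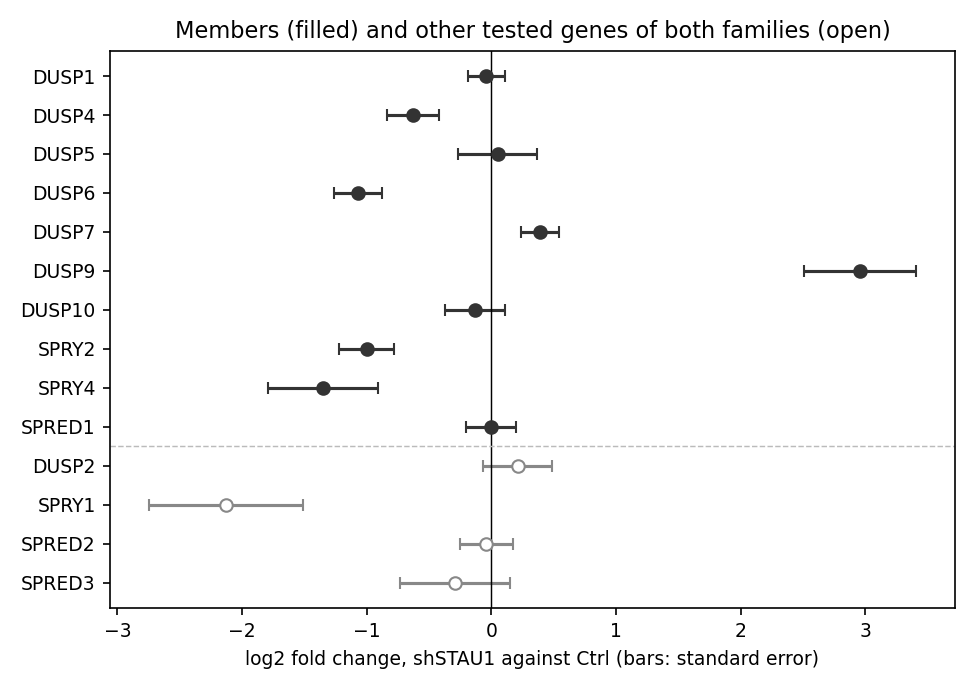
Log2 fold change of shSTAU1 against Ctrl with its standard error for the 10 genes (filled points) and for the other tested genes of the same families (open points). DUSP9 stands at 2.96 and the Sprouty genes SPRY1, SPRY2 and SPRY4 stand between -2.13 and -1.0, while DUSP1 and SPRED1 lie close to 0.

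The 10 genes had a median log2 fold change of -0.09, against 0.01 for all genes tested, with 3 positive and 7 negative values. The median size of the difference, without its sign, was 0.51 for the 10 genes and 0.33 for all genes. The genes were selected on this contrast, so nothing is read from these medians or from the split of signs. A difference of at least 1 on the log2 scale in either direction was seen in 10.2% of all genes tested. The ratio of shSTAU1 to Ctrl had the same direction in the libraries numbered 1 and in those numbered 2 for 7 of the 10 genes. Groups that lie apart, as for 56.6% of all genes tested, have the same direction in both. The full share over all genes was not computed, so nothing is read from this count. Replicate 2 was below replicate 1 for 7 of the 10 in Ctrl and for 8 of the 10 in shSTAU1, beside 50.3% and 50.6% of all genes tested.

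**Figure D4:**
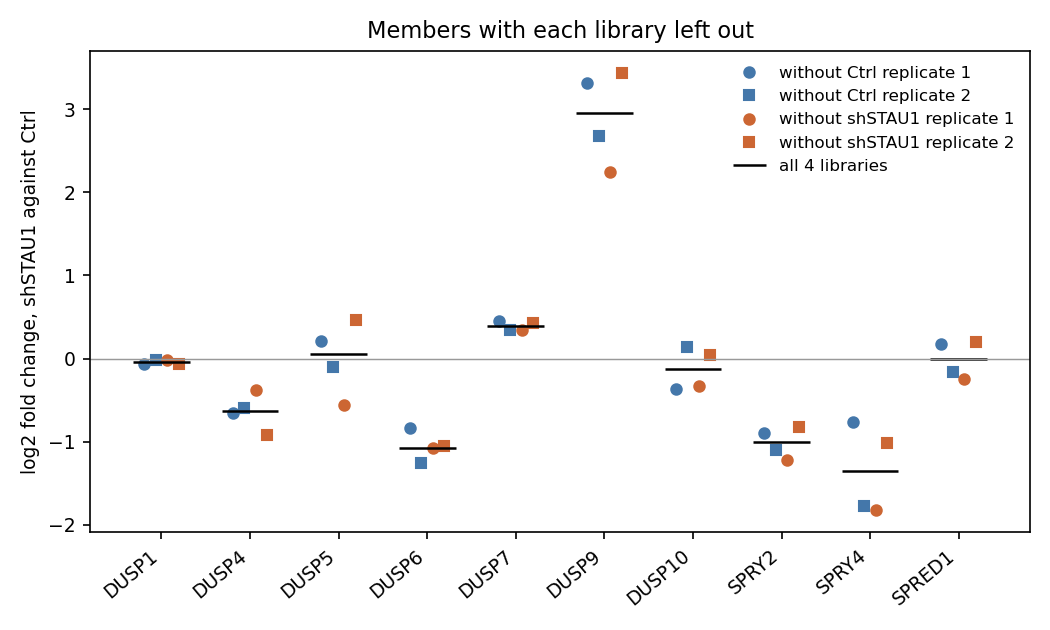
Log2 fold change of each of the 10 genes with each library left out in turn (points) and with all 4 libraries (bars). DUSP9 stays between 2.24 and 3.44 and DUSP6, SPRY2, SPRY4 and DUSP4 stay below 0, while DUSP5, DUSP10 and SPRED1 lie on both sides of 0. Where the groups lie apart, leaving out a library can hardly turn the direction.

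On the RPKM scale over coding length, the order of the levels in Ctrl was SPRED1 at 32 to 40.4, DUSP6 at 29.8 to 40.4, DUSP5 at 24.2 to 30.4, DUSP1 at 23.0 to 23.5, DUSP4 at 20.4 to 21.1, SPRY2 at 18.9 to 21.8, DUSP7 at 19.1 to 20.8, DUSP10 at 8.19 to 11.5, SPRY4 at 3.44 to 6.97 and DUSP9 at 1.08 to 1.70. The neighbours SPRED1 and DUSP6, DUSP6 and DUSP5, DUSP4 and SPRY2, and SPRY2 and DUSP7 overlapped between their libraries and have no settled order. Over the median transcript length DUSP10 stood at rank 5 and DUSP4 at rank 8 in Ctrl, and over the longest transcript DUSP1 stood at rank 1. By their means SPRY4 was at rank 9 and DUSP9 at rank 10 in Ctrl on each of these scales, but over the longest transcript their libraries overlapped, at 0.622 to 1.26 and 0.515 to 0.807 RPKM. In shSTAU1 cells DUSP9, at 6.54 to 15.2 RPKM, stood at rank 7 of the 10 and overlapped with DUSP4, SPRY2 and DUSP10, and SPRY4, at 1.46 to 2.61 RPKM, was the lowest. SPRED1 depended most on the length, with a mean of 41.0 RPKM over the median transcript length and 6.21 RPKM over the longest transcript in Ctrl.

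The genes most like DUSP9 were sought among all genes tested by the Euclidean distance between log2 CPM values centred over the 4 libraries. CA12, a carbonic anhydrase, was nearest at a distance of 0.35, with 12 and 5 counts in Ctrl and 89 and 45 counts in shSTAU1. KLK13, a kallikrein-related peptidase, followed at 0.49 with 23 and 8 counts in Ctrl and 180 and 84 counts in shSTAU1. IFITM2, an interferon-induced transmembrane protein, was also at 0.49 with 10 and 5 counts in Ctrl and 67 and 37 counts in shSTAU1. Like DUSP9, each was highest in shSTAU1 replicate 1 and lowest in Ctrl replicate 2, a likeness over 4 libraries only. These genes were picked for that likeness, so the shared order is no separate result.

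The sequences upstream of the start sites are shown for the genes that differed most, DUSP9, DUSP6, SPRY2 and SPRY4, and for DUSP1, which varied least, so that the elements through which these promoters are often read can be compared. The table of RefSeq promoters used here (GRCh38.p14) matched 8 of the 10 genes, and the promoters of DUSP4 and DUSP5 were not analysed here. For each gene the 250 bases before its most upstream RefSeq start are given from 5′ to 3′ on the strand of the gene. They lie at chrX:153642191-153642440 on the plus strand for DUSP9, chr12:89352502-89352751 on the minus strand for DUSP6, chr13:80341127-80341376 on the minus strand for SPRY2, chr5:142324248-142324497 on the minus strand for SPRY4 and chr5:172771196-172771445 on the minus strand for DUSP1. The windows of DUSP6 and SPRY4 lie inside the spans given for these genes above. Those spans come from GENCODE and begin further upstream, so these windows are upstream of the RefSeq start only. Capitals mark matches to the cyclic AMP response element (TGACGTCA), to its core (TGACG), to an ETS motif (CCGGAA) and to a TATA box (TATAAA, on the strand of the gene only), the first 3 on either strand. Shorter ETS matches such as GGAA, which the DUSP6 sequence holds, were not searched or marked.
DUSP9: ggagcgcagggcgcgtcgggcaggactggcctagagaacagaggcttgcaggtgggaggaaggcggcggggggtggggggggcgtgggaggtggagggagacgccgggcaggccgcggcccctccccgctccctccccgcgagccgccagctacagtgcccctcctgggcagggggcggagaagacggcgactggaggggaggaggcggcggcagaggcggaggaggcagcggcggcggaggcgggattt
DUSP6: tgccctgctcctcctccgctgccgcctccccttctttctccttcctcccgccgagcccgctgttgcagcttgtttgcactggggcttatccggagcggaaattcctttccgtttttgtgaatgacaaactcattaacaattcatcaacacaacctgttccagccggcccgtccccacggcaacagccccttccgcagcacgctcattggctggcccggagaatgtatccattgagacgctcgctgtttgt
SPRY2: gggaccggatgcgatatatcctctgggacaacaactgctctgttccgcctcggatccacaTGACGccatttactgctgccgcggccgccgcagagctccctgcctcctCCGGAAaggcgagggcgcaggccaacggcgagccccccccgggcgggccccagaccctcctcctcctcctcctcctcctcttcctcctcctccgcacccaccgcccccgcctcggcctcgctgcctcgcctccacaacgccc
SPRY4: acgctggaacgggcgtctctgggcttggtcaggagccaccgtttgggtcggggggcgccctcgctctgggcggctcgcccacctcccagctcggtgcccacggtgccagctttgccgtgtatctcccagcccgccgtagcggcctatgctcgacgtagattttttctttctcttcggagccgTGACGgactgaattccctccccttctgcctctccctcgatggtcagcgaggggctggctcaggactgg
DUSP1: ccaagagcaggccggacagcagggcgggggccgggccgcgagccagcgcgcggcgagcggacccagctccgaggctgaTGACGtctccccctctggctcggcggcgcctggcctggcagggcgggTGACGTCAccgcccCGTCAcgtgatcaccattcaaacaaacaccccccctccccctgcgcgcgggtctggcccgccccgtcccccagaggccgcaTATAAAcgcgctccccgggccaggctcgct

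In the windows from 250 bases before to 50 bases after the start, DUSP1 held a full response element at position -125 from the start, with cores at -172, -125, -122 and -111, of which those at -125 and -122 lie within the full element, and a TATA box at -30. SPRY2 held a core at -190 and the ETS motif at -142, and SPRY4 a core at -68. The windows of DUSP6, DUSP7, SPRED1 and the most upstream start of DUSP9 held none of these letters, nor an AP-1 element (TGANTCA) or a CArG box. Of 35116 promoter windows in the RefSeq table, 1.85% held the full response element, 24.6% its core, 17.2% the ETS motif, 7.71% the AP-1 element, 7.33% the TATA box and 1.29% a CArG box. A match is a description of these letters and not of a bound factor. The GC content was 76.3% for DUSP9, 58.3% for DUSP6, 71.0% for SPRY2, 65.0% for SPRY4 and 73.3% for DUSP1, against a median of 58.7% over all windows.

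The 3′ untranslated regions were compared by their AU-rich pentamer ATTTA, a letter pattern of many short-lived mRNAs. DUSP1 held 4 in 672 bases, or 5.95 per kilobase, and 5.17% of the 11827 tested genes with an annotated region were at least as dense. SPRED1 held 24 in 5585 bases, SPRY4 held 8 in 3782 bases, DUSP4 held 6 in 3962 bases and SPRY2 held 2 in 782 bases. DUSP9 held 1 in 1021 bases, DUSP6 held 1 in 2022 bases and DUSP5 held 0 in 1118 bases, below the median density of 1.74 per kilobase. Of the 4 genes with the largest lower values in shSTAU1, SPRY2 and SPRY4 were thus above that median and DUSP4 and DUSP6 below it.

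Outside the 10 genes, the same families held 7 further genes. The phosphatase DUSP2, a nuclear, inducible enzyme, had 134 and 189 counts in Ctrl and 209 and 186 counts in shSTAU1, with overlapping groups (log2 fold change 0.21, SE 0.28, adjusted p = 0.687). DUSP8, DUSP16 and SPRY3 were listed at 0 in all 4 libraries. HRAS was listed at 0 as well, so a 0 in this table is not read as a missing transcript. SPRY1, the third Sprouty gene with counts, had 149 and 64 counts in Ctrl and 38 and 13 counts in shSTAU1, lower in both. Its log2 fold change of -2.13 (SE 0.62) did not pass the edgeR test (adjusted p = 0.0926), and it passed in DESeq2 (log2 fold change -2.14, adjusted p = 0.0138). SPRED2, with 944 and 769 counts in Ctrl and 1017 and 741 counts in shSTAU1, overlapped (log2 fold change -0.04, SE 0.21, adjusted p = 0.926). SPRED3, with 44 and 35 counts in Ctrl and 37 and 31 counts in shSTAU1, had a log2 fold change of -0.29 (SE 0.44, adjusted p = 0.717). Among the further Sprouty and SPRED genes 0 of the 3 tested passed in edgeR and in limma-voom, 1 had an unadjusted p under 0.05, and 1 passed in DESeq2.

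The genes around these phosphatases were read from 8 lists by function, the 2 family lists included, with 98 genes of which 84 were tested. Only PEBP1 of the 84 (1.19%, beside 2.60% of all genes) passed the edgeR test, 27 had an unadjusted p under 0.05, and DESeq2 called 9 and limma-voom 1. With the replicate number added to the edgeR fit as a block, 29 of the 84 and 4087 of all 14303 genes were called. The labels do not say what a replicate number shares, and the counts given for each list come from fits without this block. Of all 14303 genes tested, 24.5% had an unadjusted p under 0.05, 10.1% were called by DESeq2 and 2.54% by limma-voom, and the counts of each list below stand beside these shares. The median log2 fold change of the 84 was -0.05, against 0.01 for all genes tested, with 36 positive and 48 negative values. Called genes among the 84 numbered 0 without Ctrl replicate 1, 0 without Ctrl replicate 2, 15 without shSTAU1 replicate 1 and 21 without shSTAU1 replicate 2.

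In the RAS-ERK cascade itself, from adaptors to kinases, 0 of 23 tested genes passed in edgeR or limma-voom, 8 had an unadjusted p under 0.05 and 1 passed in DESeq2, with a median of -0.01. The most abundant were NF1, the RAS GTPase-activating protein neurofibromin, at 1240 CPM in Ctrl and 1180 CPM in shSTAU1 (log2 fold change -0.07, adjusted p = 0.78), and PTPN11, the phosphatase SHP2, at 630 and 707 CPM (log2 fold change 0.17, adjusted p = 0.509). In the JNK and p38 cascades 0 of 15 passed in edgeR or limma-voom, 5 had an unadjusted p under 0.05 and 1 passed in DESeq2, with a median of 0.13. There MAP3K7, the kinase TAK1, was at 73.9 and 79.0 CPM (log2 fold change 0.10, adjusted p = 0.68), and MAPKAPK2, a kinase activated by p38, was at 70.8 and 89.9 CPM (log2 fold change 0.34, adjusted p = 0.153).

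The genes downstream of ERK were mixed. Of 17 tested immediate early genes 0 passed in edgeR or limma-voom, 6 had an unadjusted p under 0.05 and 2 passed in DESeq2, with 8 positive and 9 negative values and a median of -0.02. KLF6, a zinc finger transcription factor, was at 169 CPM in Ctrl and 135 CPM in shSTAU1 (log2 fold change -0.32, adjusted p = 0.262), and MYC was at 99.4 and 122 CPM (log2 fold change 0.29, adjusted p = 0.325). The 8 genes often taken as transcriptional output of ERK had 8 negative values and a median of -0.29, and 5 of them were lower in both shSTAU1 libraries. Groups lay apart for 56.6% of all genes, a share that counts both directions. The shares of all genes that were negative, or lower in both libraries, were not computed, so nothing is read from these counts. The sign was not settled for ETV1 (log2 fold change -0.25, SE 0.66) and ETV4 (log2 fold change -0.05, SE 0.17). With 1 library left out their values rose to at most 0.56 and 0.05, while those of the other genes in this list stayed below 0. None of the 8 passed in edgeR or limma-voom, 4 had an unadjusted p under 0.05 (24.5% of all genes) and 2 passed in DESeq2 (10.1% of all genes). The ephrin receptor EPHA2 was at 319 and 253 CPM (log2 fold change -0.34, adjusted p = 0.147) and the cyclin CCND1 at 173 and 154 CPM (log2 fold change -0.16, adjusted p = 0.454). The largest differences of this list, named after their values were seen, were those of the sphingosine kinase SPHK1 (log2 fold change -1.60, SE 0.40, adjusted p = 0.0727), the ephrin receptor EPHA4 (log2 fold change -1.21, SE 0.35, adjusted p = 0.0924) and the ETS factor ETV5 (log2 fold change -0.60, SE 0.20, adjusted p = 0.121). Other lists held such genes in both directions. Also named after the fact, the immediate early gene SRF was higher (log2 fold change 0.66, SE 0.15, adjusted p = 0.0599). MAP3K5 of the JNK and p38 cascades was lower (log2 fold change -1.40, SE 0.31, adjusted p = 0.0599).

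**Figure D5:**
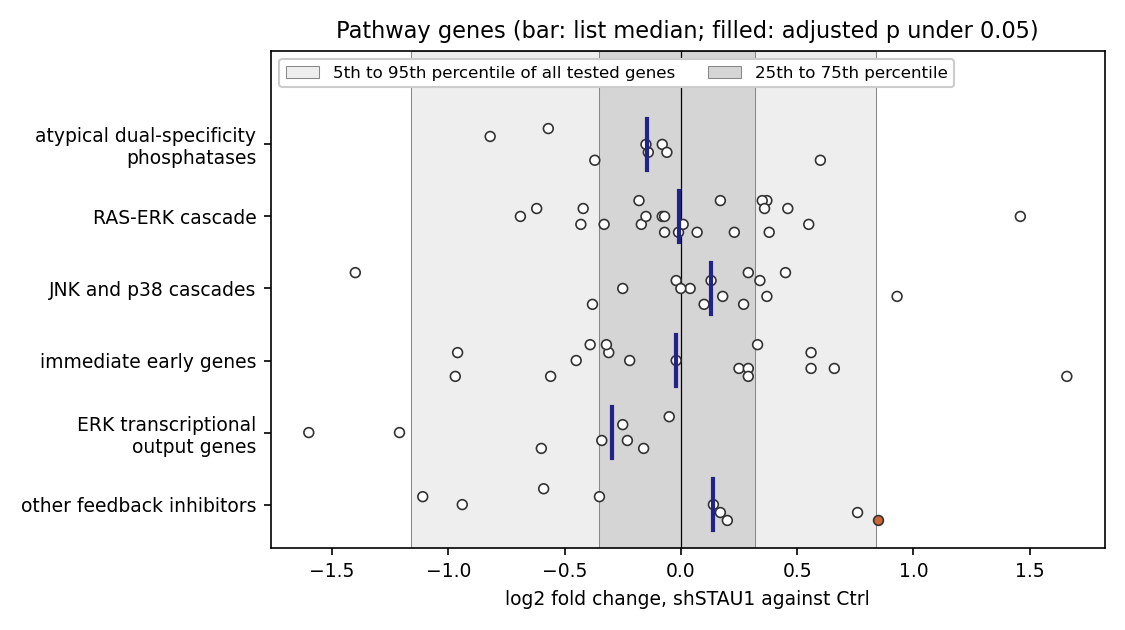
Log2 fold change of shSTAU1 against Ctrl for each tested gene of 6 pathway lists (points), with the median of each list as a bar and the ranges of all tested genes as shading. PEBP1, at 0.85, is the filled point, and the 8 ERK output genes lie below 0 with a median of -0.29.

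Other inhibitors of the pathway did not share a direction. PEBP1, the RAF kinase inhibitor protein, had 2357 and 2505 counts in Ctrl and 4475 and 4803 counts in shSTAU1. It rose from 73.3 ± 4.54 to 132 ± 5.21 CPM (SD, n = 2), with a log2 fold change of 0.85 (SE 0.13) and an adjusted p of 0.0357 by edgeR. This p was 0.49 without Ctrl replicate 1, 0.131 without Ctrl replicate 2 and 0.0988 without the filter on low counts. PEBP1 was 1 of 9 tested genes in this list of other inhibitors, of which 5 had positive and 4 negative values, with a median of 0.14. Both shSTAU1 libraries were higher for 2 of them and lower for 4, beside 56.6% of all genes with groups apart in either direction. The lowest values, named after they were seen, were those of SOCS3 (log2 fold change -1.11, SE 0.32, edgeR adjusted p = 0.0926) and IL17RD (log2 fold change -0.94, SE 0.40, edgeR adjusted p = 0.204). CBL, a ubiquitin ligase for growth factor receptors, had a log2 fold change of 0.20 (adjusted p = 0.509) and RASAL2, a RAS GTPase-activating protein, one of 0.14 (adjusted p = 0.532). Of 8 tested atypical dual-specificity phosphatases, relatives of the DUSP genes that mostly lack a kinase-binding domain, 0 passed in edgeR or limma-voom, 1 had an unadjusted p under 0.05 and 1 passed in DESeq2, with a median of -0.15. DUSP11, an RNA phosphatase, was at 40.5 and 61.5 CPM (log2 fold change 0.60, SE 0.14, adjusted p = 0.0631), and DUSP12 had a log2 fold change of -0.14 (adjusted p = 0.638).

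Annotated genes on the opposite strand of DUSP1, DUSP6 and SPRY4 had 0 counts in all libraries, except SPRY4-AS1 with 3 counts in Ctrl replicate 1. The pseudogenes DUSP5P1 and DUSP5P2 were at 0 as well. DUSP8P5, a pseudogene named for DUSP8, had 137 and 151 counts in Ctrl and 110 and 102 counts in shSTAU1, and DUSP8P1 had 7 counts in shSTAU1 replicate 1 and 0 elsewhere.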

How the data were processed

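RNA was extracted with Trizol and libraries were made with the TruSeq RNA Exome kit from 2 Ctrl and 2 shSTAU1 samples, grouped by their labels. The authors deposited raw, whole-number counts for each gene. The submitters' processing notes name Partek and hg38 without a role, and the counting program and strand setting are not given in the sources used here. Of the 67008 identifiers 58516 were in GENCODE 29 (GRCh38), with 99.9% of the counts. The 45 entries for the second copy of pseudoautosomal genes held 0 counts. That release gave positions, transcript and coding lengths and 3′ untranslated regions, and RefSeq gave promoters.

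In R 4.3.3, edgeR 4.0.16 filtered genes (filterByExpr) and scaled libraries by TMM. A quasi-likelihood test compared the groups with Benjamini-Hochberg adjustment at 0.05, since the study states no test for this experiment. CPM are relative to the TMM-scaled library size, and SEs come from this fit. DESeq2 1.42.0, limma 3.58.1 (voom), plain library size, no filter, a length and GC correction by splines, a replicate block, an adjusted p of 0.10 and leaving out each library were alternatives. The coding length was added to the transcript lengths after seeing the data. The fits were tested on simulated counts. The biological coefficient of variation was 19.1%. Replicates differed beyond counting noise (chi-square over degrees of freedom of 23.4 in Ctrl and 56.4 in shSTAU1) and were kept as replicates. With 2 against 2 libraries an exact two-sided permutation test cannot go below p = 0.333, so none is given for single genes.

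The 10 genes and the lists were chosen with earlier results of these data known. Other genes named are STAU1, those of both families, the 3 nearest to DUSP9, and in each further list every gene past the threshold and the 2 with the highest mean CPM, with exceptions stated. Protein sequences were not compared here.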

Additional observations from a re-analysis of the deposited data

How the results depend on the processing

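The direction of DUSP9, DUSP7, DUSP6, DUSP4, SPRY2 and SPRY4 was the same under every alternative run. The groups of these genes lie apart, so leaving out a library could hardly turn their direction. The other alternatives refit the same libraries on which the genes were selected, so nothing further is read from this. Values near 0 turned. With the length and GC correction, alone and with the replicate block, the log2 fold change of DUSP1 was 0.02 and 0.02, that of SPRED1 0.03 and 0.02, and the RAS-ERK median 0.02 and 0.02. DUSP5 was -0.00 with library size, -0.04 with limma-voom and -0.03 with the block. With 1 library left out, values ran from -0.56 to 0.47 for DUSP5 (lowest without shSTAU1 replicate 1, and -0.10 without Ctrl replicate 2), -0.36 to 0.14 for DUSP10, -0.24 to 0.20 for SPRED1, -0.04 to 0.50 for DUSP2, -0.29 to 0.17 for SPRED2, -0.17 to 0.02 for NF1, -0.02 to 0.34 for PTPN11 and -0.00 to 0.43 for CBL, and list medians from -0.02 to 0.10 for the RAS-ERK cascade, -0.18 to 0.20 for immediate early genes and -0.36 to 0.19 for the other inhibitors. The cause was not tested. Calls across all genes numbered 1449 by DESeq2, 11 without the filter, 1585 at an adjusted p of 0.10 and 0 to 2780 with 1 library left out. With the replicate block they numbered 4087, and 3873 with correction and block. Where 1 library was left out, the lone library of its group was assumed to vary like the other group. The labels do not say what a number shares, the deviations of same-numbered libraries correlated at 0.271, and the block moved calls from 372 to 4087, and from 1 to 29 among the 84 pathway genes. STAU1 was at -2.60 without Ctrl replicate 1 (range -2.60 to -2.58), with an adjusted p of 0.49. In the order DESeq2, block, block with correction and adjusted p of 0.10, calls were 1, 1, 1 and 1 for the other Sprouty and SPRED genes (0 to 1 with 1 library left out), 1, 1, 1 and 1 for the atypical phosphatases (0 to 1), 1, 9, 8 and 1 for the RAS-ERK cascade (0 to 6), 1, 5, 5 and 1 for JNK and p38 (0 to 3), 2, 6, 5 and 2 for immediate early genes (0 to 5) and 2, 4, 4 and 2 for ERK output genes (0 to 3). The other inhibitors had 0 without the filter, 3 with the block, 3 with block and correction and 2 at 0.10. The median of all genes tested moved most without the filter, by -0.078, and by -0.0523 with the plain library size. Low counts limit SPRY4 and DUSP9 in Ctrl, and 2 libraries a group limit all values.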
